A study of Mus musculus with 6 samples.

Results

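The endoplasmic reticulum (ER) stress and integrated stress response was followed through 34 genes in cultured mouse granulosa cells (GCs), the follicle cells that surround the oocyte, treated with media (control) or with the androgen dihydrotestosterone (DHT). The 34 members were listed by symbol as known genes of the pathway, with earlier results of these data known, and all 34 were found among the 16300 genes of the deposited expression table. They comprised 15 chaperones and folding enzymes, 6 genes of ER-associated degradation, 5 stress sensors and transcription factors, and 8 targets of the transcription factor ATF4. Both groups held 3 RNA-seq libraries of primary GCs from wild type C57BL/6J mice aged 8 to 9 weeks, and the treated group received 25 nM DHT for 24 h. Per the study's methods, GCs were collected on the day of estrus, grown in serum, briefly starved of serum and then treated without serum, and each library pooled the GCs of several mice. Differences between single animals were therefore not visible, and p-values measure the spread between these pools. It is not stated whether a control and a DHT library came from the same mice.

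ER stress arises when unfolded proteins build up in the ER, and the unfolded protein response answers through the sensors IRE1α (encoded by *Ern1*), PERK (*Eif2ak3*) and ATF6. IRE1α splices *Xbp1* mRNA and ATF6 is cut at the Golgi, and the resulting factors switch on chaperone and degradation genes through ER stress response elements. PERK phosphorylates eIF2α, as do kinases that sense amino acid shortage, heme shortage and viral RNA. That shared branch, the integrated stress response, lowers general translation while ATF4 protein increases, and ATF4 then acts on genes of amino acid supply and on *Ddit3*, which encodes the factor CHOP. Steroid-producing cells such as GCs are rich in ER membrane. Counts per gene do not show *Xbp1* splicing, ATF6 cleavage, eIF2α phosphorylation or the amount of any protein, so the values below are mRNA levels only.

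The libraries held 36111177 to 41928585 reads counted in genes. Of 8 listed granulosa markers 7 were in the table, and their summed level was 192442 to 209739 normalized counts in control and 204161 to 224564 in DHT libraries. Within that list *Cyp11a1*, the enzyme that opens steroid synthesis, was higher in DHT by 0.49 on the log2 scale (adjusted p = 0.00997), and the inhibin subunit gene *Inha* was lower (−0.61, adjusted p = 0.00162), as was *Foxl2*, a granulosa identity factor (−0.15, adjusted p = 0.0490). The fold change was negative in 5 of the 7 markers, and the higher sum was carried by *Cyp11a1*, with means of 87825 and 123349. *Fshr*, the receptor for follicle-stimulating hormone, averaged 150.1 normalized counts in the control group. Of the 3 theca markers only *Ptch1* was analysed here, at 2411 to 2773 in control and 2172 to 2294 in DHT libraries. The immune markers in the table (3 of 4 listed) summed to 227.7 to 255.3 normalized counts in control and 181.7 to 242.7 in DHT libraries. *Ptprc*, which marks all leukocytes, averaged 8.47 in controls and 14.3 after DHT (0.72, adjusted p = 0.215), and the macrophage receptor gene *Csf1r* was lower (−0.64, adjusted p = 0.0270). The endothelial markers (3 of 4 listed) summed to 100.9 to 146.8 and 111.6 to 169.1. The 5 markers of stroma and smooth muscle summed to 5749 to 8207 normalized counts in control and 9696 to 11414 in DHT libraries, and *Acta2*, smooth muscle actin, made up most of this sum and was higher by 0.76 on the log2 scale (adjusted p = 0.00564). *Myh11*, smooth muscle myosin, was also higher (0.67, adjusted p = 0.0131), whereas the stromal markers *Pdgfra* and *Col1a1* had log2 fold changes of −0.38 and −0.13 and were not called. The 4 oocyte markers were low and variable, at 158.4 to 547.2 and 30.5 to 354.8, and *Zp3* and *Oosp1* were at 0 in DHT replicate 2. The part of these marker differences in the results below was not tested.

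To show the regulatory letters of the members, windows from 250 bases before to 50 bases after the RefSeq gene start (build GRCm38.p6) were searched on both strands. Only exact matches to the motif letters were counted. A window was found for 30 of the 34 members. For 25 of these 30, the bases just after the start were found in an annotated transcript of the gene, and all 30 were used. The ER stress response element (ERSE, CCAAT and CCACG separated by 9 bases of any kind), bound by ATF6 and XBP1 together with NF-Y, was present in 8 members and in 0.119% of all 32851 windows. All 8 are chaperone or degradation genes, and *Hsp90b1* held the element on both strands. The stretches below give each one with 5 flanking bases, on the gene's own strand, with the element in capitals; a stretch that begins its capitals with CGTGG carries the element in reverse.
Hspa5 (chr2:34772020-34772048, plus strand): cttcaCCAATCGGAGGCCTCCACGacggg
Hsp90b1 (chr10:86705633-86705661, minus strand): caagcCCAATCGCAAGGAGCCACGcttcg
Hsp90b1 (chr10:86705528-86705556, minus strand): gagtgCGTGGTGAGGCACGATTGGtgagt
Calr (chr8:84847070-84847098, minus strand): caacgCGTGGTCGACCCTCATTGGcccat
Canx (chr11:50325795-50325823, minus strand): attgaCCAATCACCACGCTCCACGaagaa
Pdia6 (chr12:17266486-17266514, plus strand): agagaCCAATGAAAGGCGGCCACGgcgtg
Dnajc3 (chr14:118937822-118937850, plus strand): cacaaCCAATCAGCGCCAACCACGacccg
Creld2 (chr15:88819515-88819543, plus strand): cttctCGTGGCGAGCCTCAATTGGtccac
Syvn1 (chr19:6046527-6046555, plus strand): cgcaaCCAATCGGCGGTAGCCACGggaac

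The C/EBP-ATF response element (CARE, TGATGNAA), to which ATF4 binds with a C/EBP partner, was found in the windows of *Asns*, *Chac1*, *Trib3* and *Herpud1*, 4 of 30 members, and in 3.97% of all windows. The compact element ERSE-II (ATTGG and CCACG separated by 1 base) was found in *Herpud1* and *Dnajb11* and in 0.0365% of all windows. It shares the letters CCACG with ERSE, and no match to a pair of motifs overlapped in the stretches shown. The *Herpud1* stretch is shown because it carries both an ATF4-type and an ATF6/XBP1-type element, and those of *Chac1* and *Asns* because these were the ATF4 targets that rose after DHT. Capitals mark CARE, which in *Herpud1* and *Chac1* is in reverse (beginning TTGC), and in *Herpud1* also ERSE-II (beginning ATTGG). These matches describe the letters only; binding was not measured. The stretches of *Hspa5* and *Asns* lie before the RefSeq start but within an exon of the same gene in the GENCODE annotation.
Herpud1 (chr8:94386279-94386428, plus strand): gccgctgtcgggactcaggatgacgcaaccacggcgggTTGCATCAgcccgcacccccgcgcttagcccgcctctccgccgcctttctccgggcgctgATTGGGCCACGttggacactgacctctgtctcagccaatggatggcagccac
Chac1 (chr2:119351022-119351121, plus strand): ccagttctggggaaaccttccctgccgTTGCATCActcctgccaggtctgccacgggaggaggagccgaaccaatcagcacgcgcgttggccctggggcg
Asns (chr6:7693215-7693242, minus strand): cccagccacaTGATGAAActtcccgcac

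In control cells 7 of the 15 chaperone and folding genes ranked among the top 176 mRNAs of the table. Levels between genes were compared in TPM, a transcript level scaled to exonic length and to the library total, recalculated from the recovered reads and the exonic length of each gene in the GENCODE annotation of GRCm38. In control libraries *Pdia4*, a protein disulfide isomerase, stood highest at 1711 ± 174 TPM (SD, n = 3), rank 49 in the table. The lectin chaperone *Calr* followed at 1637 ± 62.2 TPM, then the disulfide isomerases *Pdia3* at 1358 ± 61.6 TPM and *P4hb* at 1312 ± 37.2 TPM. *Pdia4* and *Calr* were closer to each other than the SD of *Pdia4*, and *Pdia3* and *P4hb* closer than the SD of *Pdia3*. *Hsp90b1*, the ER member of the HSP90 family, had 1224 ± 41.3 TPM. *Hspa5*, which encodes the master chaperone BiP, had 941 ± 52.1 TPM, and *Canx* 726 ± 30.8 TPM. The other chaperones reached from *Pdia6* at 368 ± 19.1 TPM (rank 360) down to *Dnajb9* at 57.4 ± 6.41 TPM (rank 3324). Among the signalling genes *Atf4* was the most abundant (339 ± 25.8 TPM), followed by *Xbp1* (145 ± 8.56 TPM). The sensors lay lower, with *Atf6* at 65.2 ± 1.18, *Ern1* at 36.9 ± 1.69 and *Eif2ak3* at 26.0 ± 0.50 TPM. The lowest members were ATF4 targets linked to severe stress, *Chac1* (14.3 ± 3.91 TPM) and *Trib3* (8.61 ± 2.43 TPM).

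**Figure D1:**
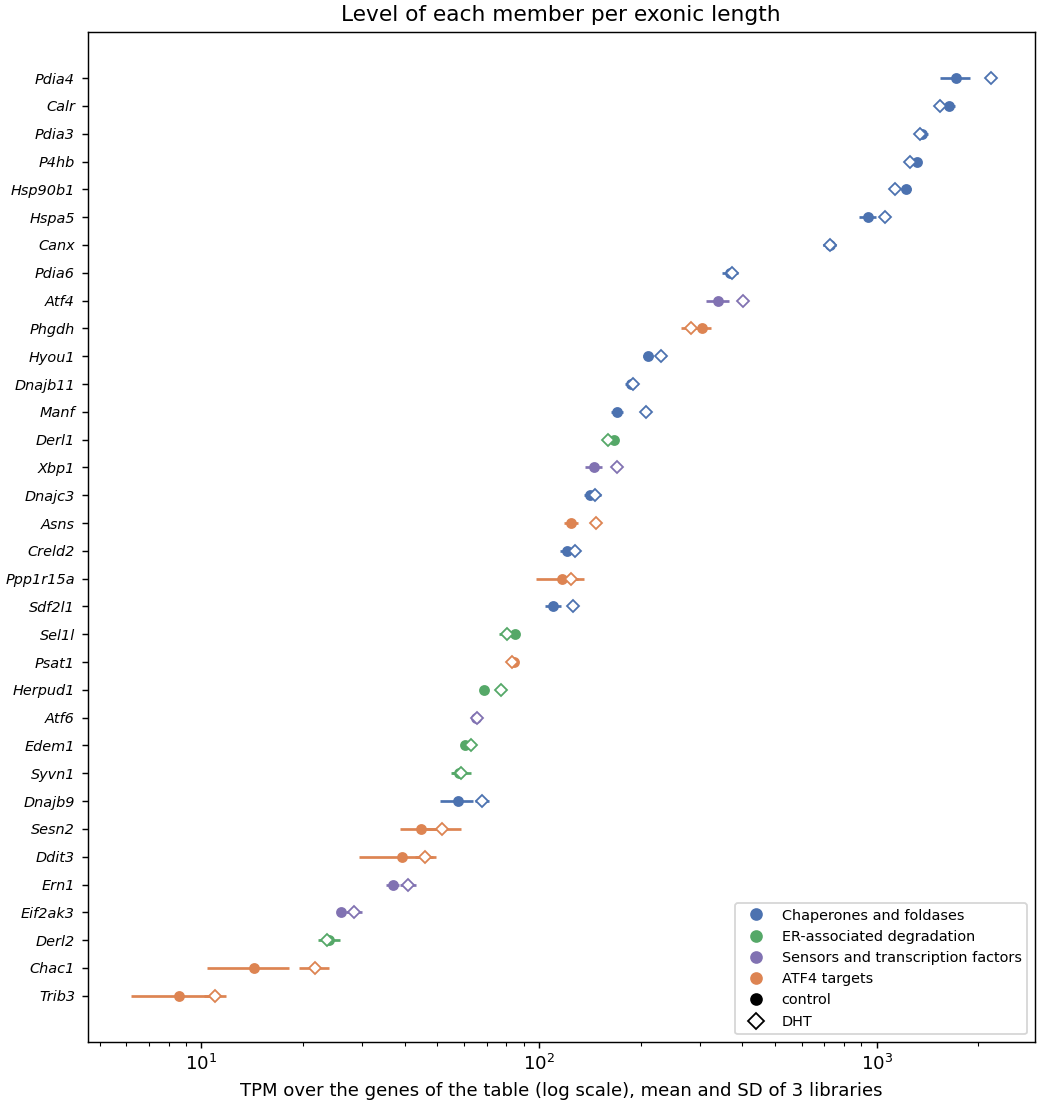
Level of each of the 34 members in TPM on a log scale, with filled circles for control and open diamonds for DHT libraries; bars show the SD of 3 libraries. Control levels run from 8.61 TPM for *Trib3* to 1711 TPM for *Pdia4*, and most chaperones lie above the sensors and the ATF4 targets.

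To find out whether DHT changed the response, each gene was tested in the fit over the whole table (limma with Benjamini-Hochberg adjustment over 16292 genes, with a call wherever the adjusted p did not exceed 0.05). After DHT 13 of the 34 members were higher (38.2%) and 0 were lower, whereas among all genes tested 6.52% were higher and 4.66% were lower. Among the 10519 genes with at least the mean level of the lowest member, 8.4% were called higher and 6.18% lower. No member was called lower by edgeR or DESeq2 either, and none was lower at an unadjusted p under 0.05 in the limma test. At the 4.66% of all genes a list of 34 would hold few lower calls, so the 0 alone sets the members little apart. In 16 members the lowest DHT library exceeded the highest control, against 15.9% of all genes, and in *Hsp90b1* and *Sel1l* the reverse held (14.7% of all genes). The changes were small: no member passed an absolute log2 fold change of 1. Among all genes 1.31% passed it together with an adjusted p of at most 0.05. The median log2 fold change was 0.14 in the members against −0.01 in all genes. In bulk RNA a change in the number of cells that express a gene and a change in RNA per cell cannot be told apart.

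The calls depended on the settings and on single libraries. Between 12 and 13 members were called by edgeR, DESeq2, TMM scaling and quantile normalization. *Manf* and *Asns* were called in every setting. They were also the only members called when the variance was not allowed to follow the expression level, where the count of higher members fell to 2. With 1 library left out the count ran from 5 (without DHT replicate 3) to 16 (without control replicate 3), with 6 without DHT replicate 2, 7 without control replicate 1 and 8 without DHT replicate 1.

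**Figure D2:**
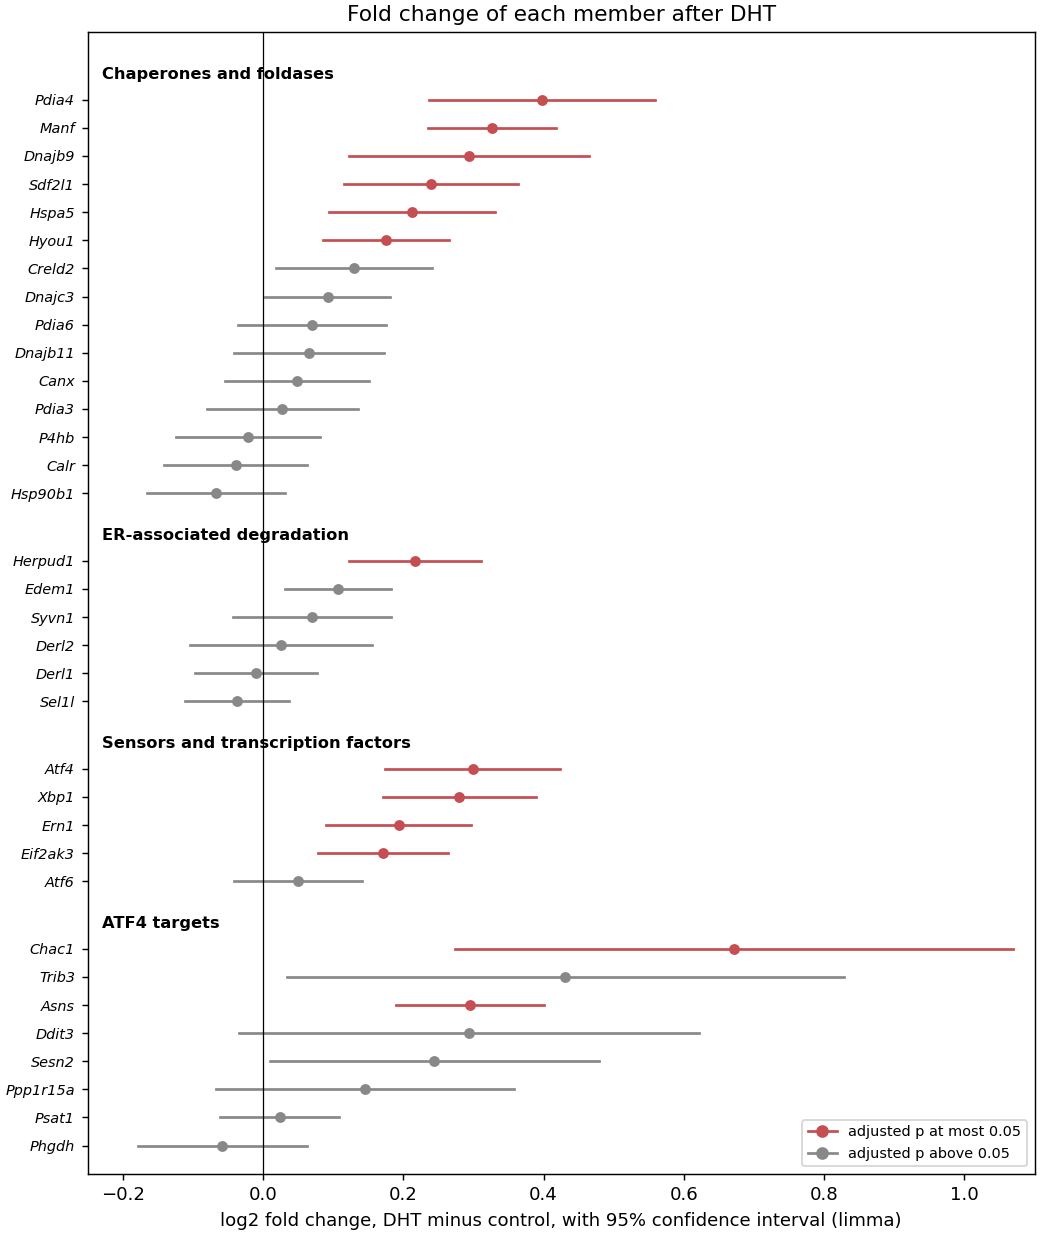
Log2 fold change of each member (DHT minus control) with its 95% confidence interval from limma, ordered within the 4 groups. Red marks the 13 members called higher, from *Eif2ak3* at 0.17 to *Chac1* at 0.67, and the intervals of the grey members reach from −0.18 to 0.83.

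The chaperones and folding enzymes fell into a set that rose and a set that did not pass the test. Of 15 genes, 6 were higher after DHT and 9 were not called, with a median log2 fold change of 0.09. *Pdia4* had 41101, 48302 and 39841 normalized counts in control libraries 1 to 3 and 54671, 56516 and 58499 in DHT libraries 1 to 3. Its groups did not overlap, the difference was 31.3%, and the log2 fold change was 0.40 ± 0.07 (SE, adjusted p = 0.00808). *Manf*, a secreted ER protein that protects stressed cells, had 6253, 6586 and 6057 normalized counts in control and 7844, 7780 and 8054 in DHT libraries. The 3 DHT values lay close together and well above the controls, a rise of 25.3% (log2 fold change 0.33 ± 0.04, adjusted p = 0.00124). Genes on the other strand share 4.14% and 4.71% of its exonic bases.

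The co-chaperone *Dnajb9*, which holds IRE1α inactive together with BiP, had 1427, 1446 and 1736 normalized counts in control and 1916, 1781 and 1932 in DHT libraries. The groups were separated by a small gap, since control replicate 3 reached 1736 and DHT replicate 2 stood at 1781. Its log2 fold change was 0.29 ± 0.08 (adjusted p = 0.0391), and the call was lost when control 1, control 2 or any single DHT library was left out (adjusted p from 0.070 to 0.14). *Sdf2l1*, which works in a complex with BiP and ER DNAJ proteins, had 1286, 1348 and 1206 normalized counts in control and 1463, 1493 and 1576 in DHT libraries. It was higher by 18.0% (log2 fold change 0.24 ± 0.05, adjusted p = 0.0244), a call lost without control 1, DHT replicate 2 or DHT replicate 3 (adjusted p from 0.053 to 0.10).

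*Hspa5* (chromosome 2, 34771970 to 34777547 in GRCm38) is the usual indicator gene of ER stress and carries the ERSE shown above. It had 41236, 44425 and 39619 normalized counts in control and 46923, 48258 and 49842 in DHT libraries. The lowest DHT library lay above the highest control, and the rise was 15.8% (log2 fold change 0.21 ± 0.05, adjusted p = 0.0318). This call was lost with quantile normalization (adjusted p = 0.11), and when control 1, control 3 or any single DHT library was left out (adjusted p between 0.054 and 0.13). *Hyou1*, the nucleotide exchange factor of BiP, had 15255, 16423 and 16275 normalized counts in control and 17994, 18135 and 17998 in DHT libraries. Its DHT libraries differed by less than 1 control SD, and the rise was 12.9% (log2 fold change 0.18 ± 0.04, adjusted p = 0.0226), a call lost when any single DHT library was left out (adjusted p from 0.061 to 0.0999).

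The 9 uncalled chaperones had log2 fold changes from −0.07 to 0.13, with 95% intervals between −0.17 and 0.24 (adjusted p from 0.136 to 0.822). *Hsp90b1* had 51414, 53848 and 50116 normalized counts in control and 49106, 49659 and 49503 in DHT libraries, without overlap but only 4.58% apart (log2 fold change −0.07, interval −0.17 to 0.03, adjusted p = 0.385). On the strand opposite to *Hsp90b1* an annotated pseudogene shares 10.3% of its exonic bases, and the strand setting of the counting was not stated. The lectin chaperones *Calr* and *Canx*, which hold glycoproteins during folding, had log2 fold changes of −0.04 and 0.05. The disulfide isomerases *Pdia3*, *Pdia6* and *P4hb* had 0.03, 0.07 and −0.02, while *Pdia4*, of the same family, rose. *Creld2* and *Dnajc3*, a co-chaperone that also inhibits PERK, had DHT libraries above all controls without passing the test (0.13, adjusted p = 0.136, and 0.09, adjusted p = 0.183). Chaperones as a group took 0.939% ± 0.0437 of all reads in control and 0.981% ± 0.0114 in DHT libraries, with ranges of 0.903 to 0.988% and 0.971 to 0.993% that overlapped.

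The chaperone count rested on single libraries. It was 2 without DHT replicate 2 or DHT replicate 3, 3 without control replicate 1 or DHT replicate 1, and 5 without control replicate 3.

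**Figure D3:**
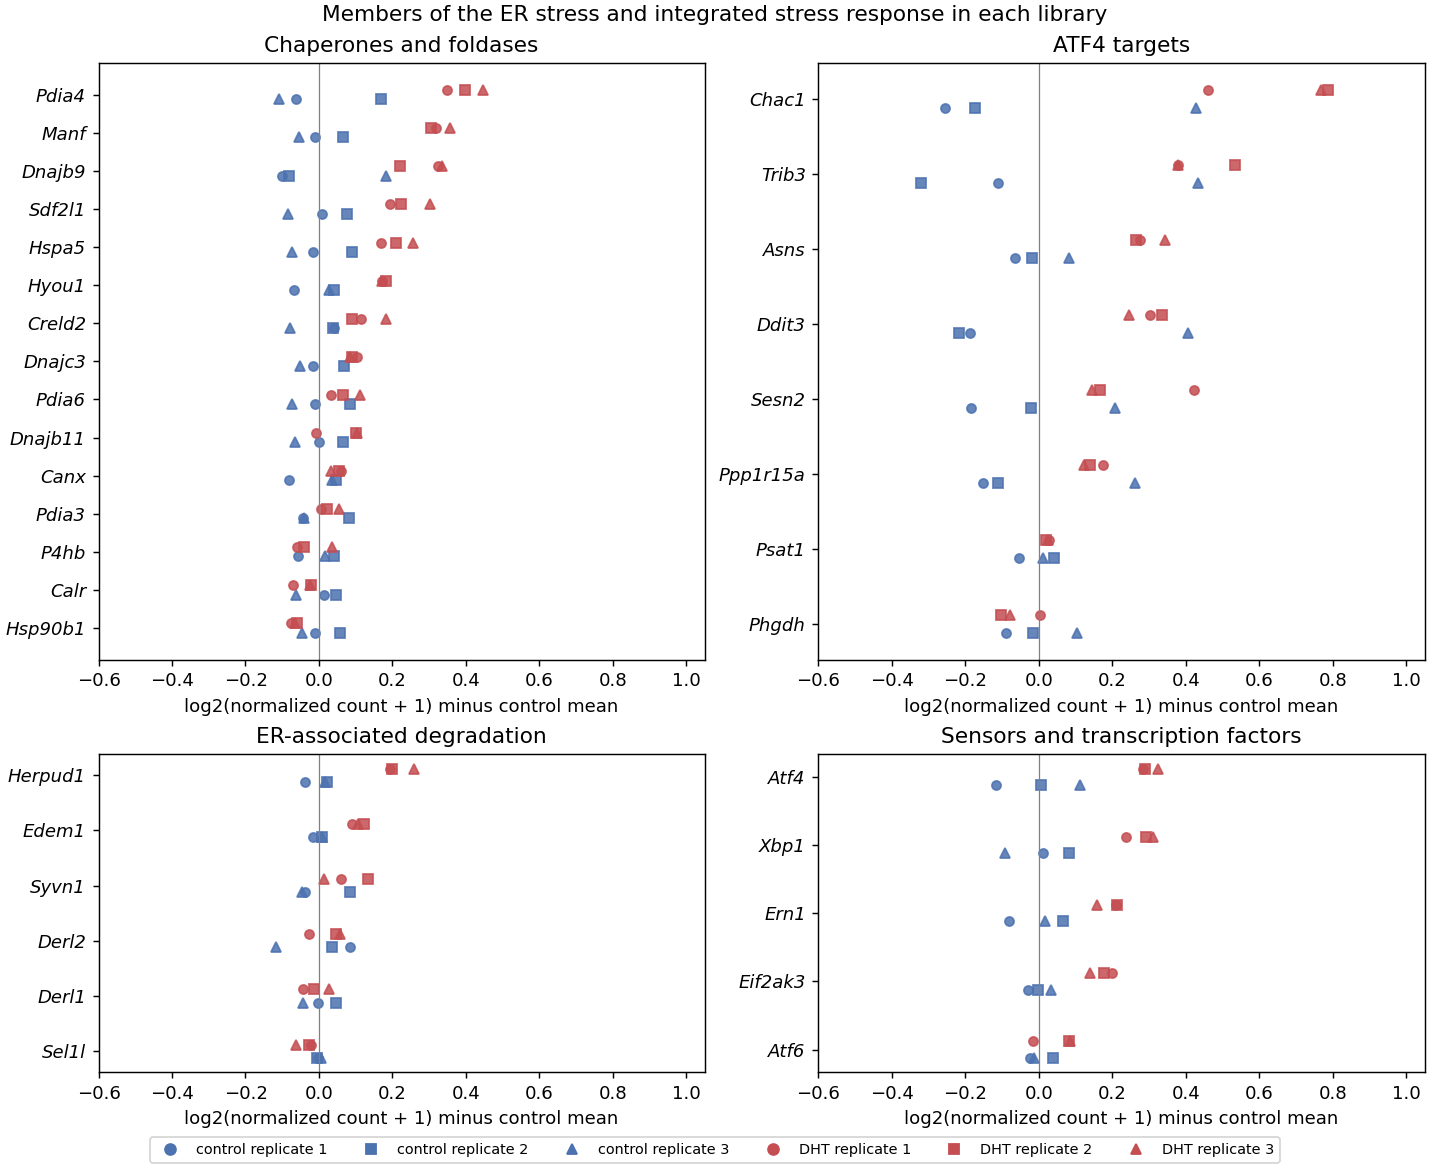
Each member in each library, as log2(normalized count + 1) minus the mean of the 3 control libraries; blue marks control, red marks DHT, and the symbol shape gives the replicate. DHT libraries lie to the right of all controls in genes such as *Manf*, *Xbp1* and *Asns*, and control replicate 3 (blue triangle) lies to the right of the other controls in most ATF4 targets.

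Of the 6 genes of ER-associated degradation, which draw misfolded proteins back to the cytosol for the proteasome, 1 was higher after DHT and 5 were not called (median log2 fold change 0.05). The called gene was *Herpud1* (chromosome 8, 94386438 to 94395377), a membrane protein that joins the parts of the degradation complex. It had 1635, 1703 and 1697 normalized counts in control and 1918, 1928 and 2007 in DHT libraries. The control values spanned a small range and all DHT values lay above it, a rise of 16.2% (log2 fold change 0.22 ± 0.04, adjusted p = 0.0111). Without DHT replicate 3 the adjusted p was 0.054 and the count of degradation genes fell to 0.

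*Edem1*, a lectin that hands glycoproteins to degradation, had 4035, 4106 and 4101 normalized counts in control and 4341, 4443 and 4396 in DHT libraries. The groups were apart but the test was not passed (log2 fold change 0.11, interval 0.03 to 0.18, adjusted p = 0.0774). The ubiquitin ligase gene *Syvn1* and its partner *Sel1l*, the core of the complex, had log2 fold changes of 0.07 and −0.04, and the channel genes *Derl1* and *Derl2* had −0.01 and 0.03. Intervals of the 5 uncalled genes lay between −0.11 and 0.18. The read share of the group was 0.0629% ± 0.00139 in control and 0.0630% ± 0.000330 in DHT libraries, and the ranges overlapped.

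Among the sensors and transcription factors 4 of 5 genes were higher after DHT, with a median log2 fold change of 0.19. *Atf4* (chromosome 15, 80255184 to 80257541) had 7714, 8395 and 9051 normalized counts in control and 10192, 10222 and 10473 in DHT libraries. The controls spread more than the DHT libraries and stayed below all of them, and the rise was 22.8% (log2 fold change 0.30 ± 0.05, adjusted p = 0.00896). *Xbp1* (chromosome 11, 5520659 to 5525893) had 4975, 5225 and 4630 normalized counts in control and 5824, 6043 and 6122 in DHT libraries. It rose by 21.3% without overlap (log2 fold change 0.28 ± 0.05, adjusted p = 0.00670). Both were called in 15 of 16 settings, the exception being the fit without an intensity trend.

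*Ern1* had 2988, 3312 and 3202 normalized counts in control and 3662, 3665 and 3528 in DHT libraries, with a log2 fold change of 0.19 ± 0.05 (adjusted p = 0.0274). *Eif2ak3* had 1609, 1640 and 1681 normalized counts in control and 1886, 1857 and 1809 in DHT libraries, with a log2 fold change of 0.17 ± 0.04 (adjusted p = 0.0296). Both sensors were separated from their controls, but their calls depended on single libraries: without control replicate 1 or any single DHT library neither was called, and the count for the group was then 2. *Eif2ak3* also missed the threshold without control 2 (adjusted p = 0.077) and with DESeq2 (adjusted p = 0.052), and 8.05% of its exonic bases overlap an annotated transcript on the other strand.

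*Atf6* had 6211, 6485 and 6259 normalized counts in control and 6248, 6691 and 6695 in DHT libraries. These overlapped, with a log2 fold change of 0.05 ± 0.04 (interval −0.04 to 0.14, adjusted p = 0.492). The 5 genes together took 0.0636% ± 0.00176 of reads in control and 0.0721% ± 0.000589 in DHT libraries. This was the only member group whose read shares did not overlap between control (0.0617 to 0.0652%) and DHT (0.0715 to 0.0726%). Among all genes tested, the lowest DHT value exceeded the highest control in 15.9%, and the reverse held in 14.7%. The lack of overlap alone therefore sets the sensor group little apart.

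The 8 ATF4 targets had the highest median log2 fold change of the 4 groups, 0.27, but also the widest spread between libraries, and 2 of them were called higher. *Asns*, asparagine synthetase, had 3417, 3525 and 3783 normalized counts in control and 4325, 4289 and 4535 in DHT libraries. All DHT values lay above the controls, and the rise was 22.6% (log2 fold change 0.29 ± 0.05, adjusted p = 0.00421). *Chac1*, an enzyme that degrades glutathione, had 201, 213 and 323 normalized counts in control and 331, 415 and 409 in DHT libraries. It had the largest fold change of the members, 56.7% higher with a log2 fold change of 0.67 ± 0.18 (adjusted p = 0.0411), while control replicate 3 almost reached DHT replicate 1. Its call was lost when any of controls 1 and 2 and DHT replicates 2 and 3 was left out (adjusted p from 0.11 to 0.15).

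*Ddit3* (chromosome 10, 127290774 to 127296288) had 609, 597 and 919 normalized counts in control and 855, 875 and 822 in DHT libraries. Control replicate 3 lay above all DHT libraries and the other two controls far below them, and the test was not passed (log2 fold change 0.29 ± 0.14, adjusted p = 0.249). *Ppp1r15a*, the phosphatase subunit that reverses eIF2α phosphorylation, likewise had control replicate 3 on top, with 3213, 3303 and 4276 normalized counts in control and 4027, 3929 and 3883 in DHT libraries. *Trib3*, a pseudokinase that is induced by ATF4 and CHOP and restrains them, had 173, 150 and 253 normalized counts in control and 244, 272 and 244 in DHT libraries. *Sesn2*, a leucine sensor that restrains mTORC1, had 1430, 1602 and 1877 in control and 2181, 1824 and 1797 in DHT libraries. In all 4 genes control replicate 3 was the highest control and fell within or above the DHT range.

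The serine synthesis genes *Psat1* and *Phgdh* had log2 fold changes of 0.02 (interval −0.06 to 0.11) and −0.06 (interval −0.18 to 0.06). In *Phgdh* control replicate 3, at 8474 normalized counts, again lay above all DHT libraries (7908, 7346 and 7473). Over the 8 targets, the median deviation from the control mean was −0.13, −0.07 and 0.23 on the log2 scale in control libraries 1 to 3, and 0.29, 0.21 and 0.19 in DHT libraries 1 to 3. For the chaperones the controls stood at −0.01, 0.07 and −0.06 and DHT at 0.10, 0.09 and 0.11, so control replicate 3 was not high there.

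Without control replicate 3, 6 of the 8 ATF4 targets were called higher instead of 2. The added genes were *Ddit3* (log2 fold change 0.50, adjusted p = 0.00105), *Trib3* (0.65, adjusted p = 0.00724), *Ppp1r15a* (0.28, adjusted p = 0.00264) and *Sesn2* (0.35, adjusted p = 0.0329), and *Chac1* then had 0.89 (adjusted p = 0.00157). In that fit 1237 genes of the whole table were called higher and 857 lower, against 1063 and 760 with all libraries. Leaving out control 1, control 2, or replicate 2 or 3 of the DHT group gave a count of 1. Control replicate 3 was the highest control in *Chac1* and in the added genes, so leaving it out had to raise their fold changes. The values of the fit without it are therefore not separate support for a rise. Nothing in the labels sets control replicate 3 apart, so all libraries were kept.

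**Figure D4:**
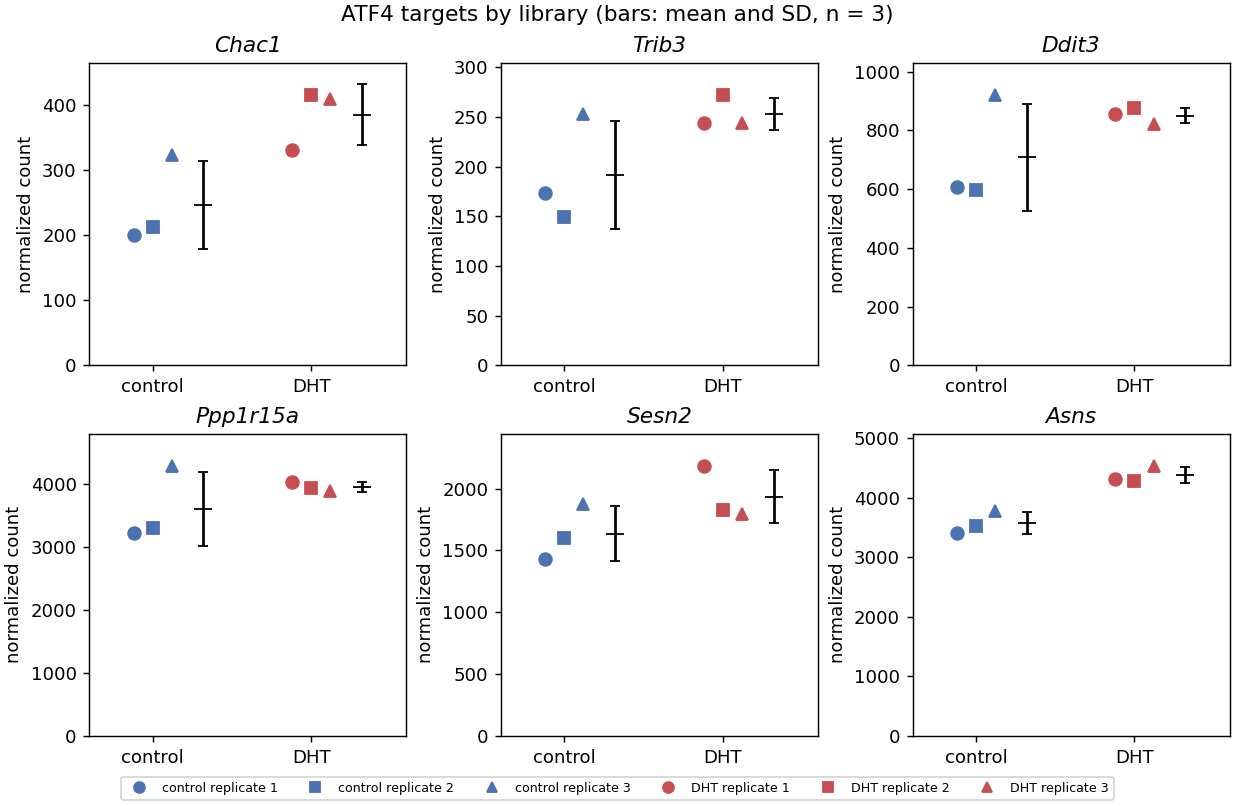
Normalized counts of 6 ATF4 targets in each library, with bars for the mean and SD of 3 libraries; the axes start at 0. In *Ddit3* and *Ppp1r15a* control replicate 3 (919 and 4276) stands above the DHT libraries, whereas in *Asns* and *Chac1* all DHT libraries stand above the controls.

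The members were then read against the promoter elements shown above. Of the 8 members with an ERSE, 1 (*Hspa5*) was called higher, against 10 of the 22 members whose windows held no exact match, and the median log2 fold changes were 0.07 and 0.205. Of the 4 members with a CARE, 3 were called higher (*Asns*, *Chac1* and *Herpud1*), against 8 of the 26 without it, with medians of 0.36 and 0.10. Elements with a changed letter or outside the window were not searched, so members counted as without an element may still carry one. These counts are a description of few genes, without a test, and *Manf*, *Hyou1*, *Atf6* and *Derl1* had no window.

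Further genes of the pathway, 92 in 7 lists, gave 25 called higher and 6 called lower, or 27.2% higher against the 6.52% of all genes. Among all genes 4.66% were called lower. The lists of the ER itself had medians near 0. Among 22 other genes of ER folding, 4 were higher and 0 lower (1 was lower at an unadjusted p under 0.05, and edgeR and DESeq2 also called 0), with a median log2 fold change of 0.02. They included *Rpn1*, a subunit of the complex that attaches sugar chains (0.27, adjusted p = 0.00537), and *Spcs2*, a subunit of the signal peptidase (0.24, adjusted p = 0.00718). Among 16 other degradation genes 4 were higher and 1 lower, led by *Selenos* (0.27, adjusted p = 0.00370) and *Aup1* (0.22, adjusted p = 0.00969), both of the machinery that moves proteins out of the ER. The lectin gene *Erlec1* was the gene that fell (−0.19, adjusted p = 0.0172). The folding list had 2 higher genes, *Rpn1* and *Spcs2*, when control 1 or any single DHT library was left out. The degradation list had 2, *Selenos* and *Aup1*, without control 1 or without replicate 2 or 3 of the DHT group, and in the same fits *Erlec1* was not called; without control 3 it had 2 lower genes.

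Among 16 other signalling genes 3 rose and 2 fell, with a median of 0.01. *Creb3l1*, an ER-bound transcription factor of the ATF6 type, had 2332, 2490 and 2659 normalized counts in control and 3203, 3085 and 3111 in DHT libraries (0.33, adjusted p = 0.00368). *Wfs1*, an ER membrane protein, also rose (0.20, adjusted p = 0.0266). *Mbtps1*, the protease that makes the initial cut in ATF6 and in the sterol factor SREBP, fell from 8247, 7833 and 8174 to 6886, 6875 and 6669 normalized counts (−0.25, adjusted p = 0.00296). *Eif2ak2*, the eIF2α kinase PKR that responds to double-stranded RNA, fell as well (−0.26, adjusted p = 0.0106). Higher calls in this list dropped to 2 without control 1 or control 2 and to 1 (*Creb3l1*) without replicate 1 or 2 of the DHT group, and *Wfs1* was not called in these fits.

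The next lists hold genes of amino acid supply, a main output of ATF4. Of 9 amino acid transport genes, 6 rose and 1 fell, with a median of 0.24. The arginine and lysine transporter *Slc7a3* had 170, 162 and 196 normalized counts in control and 271, 261 and 257 in DHT libraries (0.58, adjusted p = 0.00770). *Slc3a2*, the heavy chain shared by several amino acid exchangers, rose by 0.38 (adjusted p = 0.0121). The cystine exchanger *Slc7a11* went the other way, from 733, 440 and 658 to 314, 345 and 348 normalized counts (−0.83, adjusted p = 0.0128), although it too is a known ATF4 target. The count of higher transport genes was 3 without replicate 2 or 3 of the DHT group, and *Slc3a2* was not called without replicate 3; without control 2 a further gene was called lower.

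Of 8 other genes of serine, proline and one-carbon metabolism 4 rose and 0 fell by limma, edgeR or DESeq2, also at an unadjusted p under 0.05, with a median of 0.23. Among all genes 4.66% were called lower, so a list of 8 would hold few lower calls at that share. *Mthfd2*, a mitochondrial folate enzyme, had 2497, 2796 and 3114 normalized counts in control and 3913, 3942 and 4188 in DHT libraries (0.52, adjusted p = 0.00214), and *Aldh1l2*, also a mitochondrial folate enzyme, rose by 0.38 (adjusted p = 0.0162). Of 12 tRNA synthetase genes 2 rose, *Cars* (0.21, adjusted p = 0.0289) and *Mars* (0.21, adjusted p = 0.0103), and 11 of the 12 had a positive fold change. *Mars* overlaps *Ddit3* on the other strand over 3.97% of the exonic bases of *Ddit3*. A further annotated gene, also named *Ddit3*, shares 6.13% of these bases on the same strand and was not among the genes of the table. The synthetase count was 5 when control 3 was left out and 1 (*Mars*) when any other library was. The serine and one-carbon count was 6 without control 3, 1 (*Mthfd2*) without DHT replicate 2 and 2 without DHT replicate 3.

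In the list of other ATF4-linked transcription factors and stress outputs, 9 of 10 genes were in the table, and 2 rose and 2 fell. The transcription factor genes *Cebpb* (0.32, adjusted p = 0.00379) and *Atf5* (0.24, adjusted p = 0.0201) rose. The secreted stress factor *Gdf15* fell from 284, 227 and 336 to 168, 190 and 171 normalized counts (−0.66, adjusted p = 0.0193), and *Stc2*, a secreted glycoprotein, fell by 0.61 on the log2 scale (adjusted p = 0.000348). *Atf3*, chosen after its values were seen, had 229, 269 and 612 normalized counts in control and 751, 615 and 750 in DHT libraries. Its fold change was the largest of the list but was not called (1.07, adjusted p = 0.0570), and control replicate 3 was again the highest control. Without it *Atf3* had 1.499 (adjusted p = 9.86e-05), a larger fold change that leaving out the highest control had to give. The list then had 4 higher and 3 lower genes. *Atf5* lost its call when control 2 or replicate 2 or 3 of the DHT group was left out, and *Gdf15* when control 1 or replicate 1 or 3 of the DHT group was, so that the counts also fell to 1 higher or 1 lower.

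For comparison, chaperones outside the ER were counted the same way. Of 11 cytosolic heat shock genes 0 rose by limma, edgeR or DESeq2 (1 was higher at an unadjusted p under 0.05) and 1 fell, with a median log2 fold change of −0.04. The gene that fell was *Cryab*, a small heat shock protein, with 1957, 1895 and 2050 normalized counts in control and 1264, 1241 and 1126 in DHT libraries (−0.70, adjusted p = 0.000148). Quantile normalization called 3 of this list lower. Of 9 mitochondrial chaperone and protease genes 1 rose, the protease *Lonp1* (0.19, adjusted p = 0.0148), and the median was 0.03; its call was lost without replicate 2 or 3 of the DHT group. Among all genes 6.52% were called higher and 4.66% lower, so few calls would arise in lists this short at those shares. The difference between these lists and the members was not tested.

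**Figure D5:**
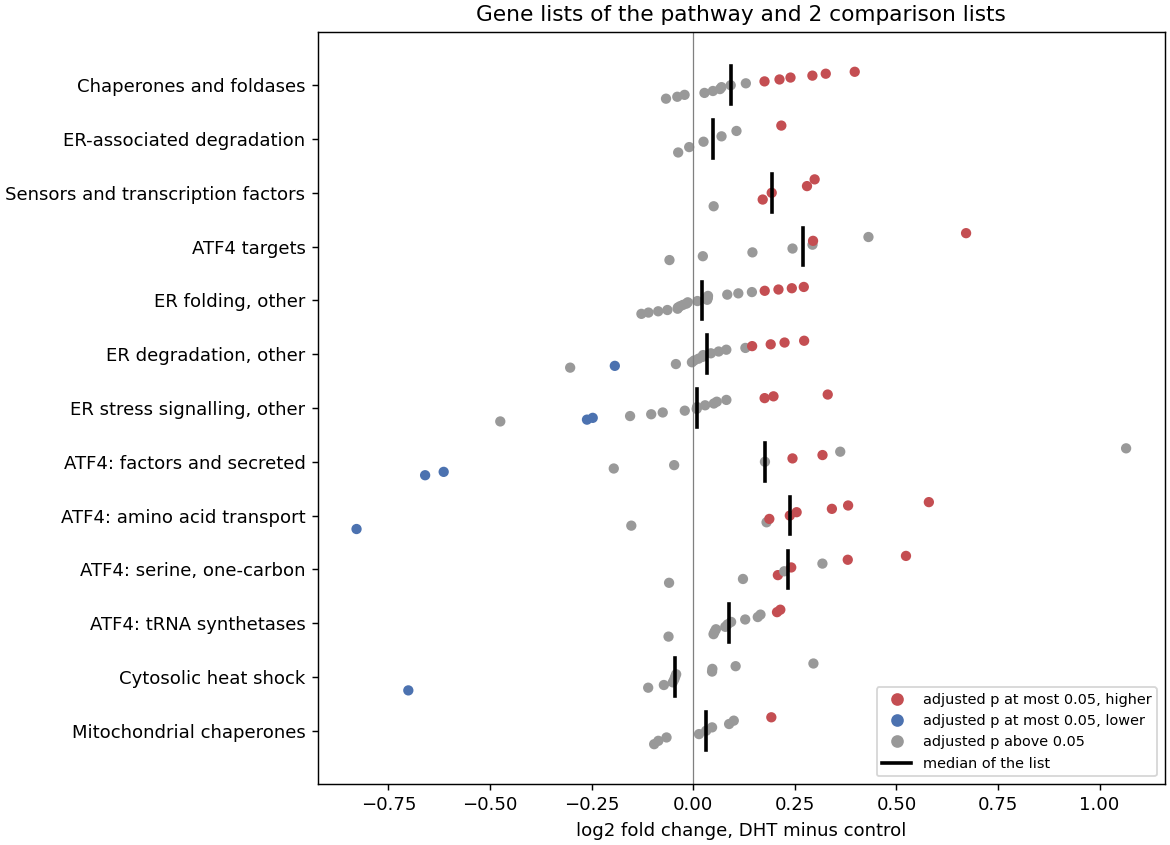
Log2 fold change (DHT minus control) of every gene in the 4 member groups, the 7 further lists of the pathway and the 2 comparison lists; red and blue mark genes called higher and lower, grey the rest, and black bars the list medians. The medians run from −0.04 (cytosolic heat shock) to 0.27 (ATF4 targets), with single genes that fell as far as −0.83 (*Slc7a11*).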

How the data were processed

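Per the study's methods, the authors trimmed reads with Trimmomatic 0.36, aligned them to GRCm38 with STAR 2.5.2b and counted unique exonic reads per gene with featureCounts (Subread 1.5.2) for a DESeq2 analysis; the strand setting is not given in the sources used here. The deposited values (unit: signal, normalized counts) behave as these counts divided by 1 factor per library, as inferred from the values; how the factor was set is not given in the sources used here. Columns with the authors' own fold changes and p-values, and their shorter table of selected genes, were not used. The labels' extraction text names whole ovary, whereas the cell type label names granulosa cells.

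Genes with a mean of at least 10 were tested in R 4.3.3 on log2(value + 1) by limma 3.58.1 with an intensity trend, a test made for log values, with Benjamini-Hochberg adjustment over 16292 genes and calls at an adjusted p of at most 0.05; a fold change on this scale understates that of low genes. Whole reads were recovered in 100% of values (within 0.001 of a read) and used in the count tests of edgeR 4.0.16 and DESeq2 1.42.0 and for TPM, with exonic lengths from GENCODE vM21 for 16259 of 16300 genes. Promoter sequences came from RefSeq. Scripts were tested on simulated data. Called members are given one by one, as are *Hspa5*, *Ddit3*, *Atf4*, *Xbp1* and *Atf6*; of each further list, the called genes with the 2 largest rises and the 2 largest falls. The members and lists were chosen with earlier results of these data known. The alternatives were 2 pseudocounts, no filter, a mean of at least 50, quantile and TMM scaling, no intensity trend, a replicate block, both count tests and each library left out. With 3 libraries a group, an exact two-sided permutation test of a single gene could not go below 0.1.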

Additional observations from a re-analysis of the deposited data

How the results depend on the processing

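Under pseudocounts of 0.5 and 8, no filter, a mean of at least 50 and TMM scaling, all 34 members kept their side of the threshold, and edgeR's quasi-likelihood test did the same. Quantile normalization lost *Hspa5* and DESeq2 lost *Eif2ak3*. The uncalled *Derl1*, *Derl2*, *Pdia3* and *Psat1*, all with fold changes near 0, changed sign in 1 or 2 of 16 settings; no called gene did, which their separated groups largely fix. Without an intensity trend the higher calls numbered 2 members, 1 chaperone, 0 degradation genes, 0 sensors, 1 ATF4 target and 6 further pathway genes (2 of these lists' genes lower), and 501 genes higher and 303 lower in the table; the cause was not tested. A fit with a replicate block gave 7 members, 3 chaperones, 0 degradation genes, 2 sensors and 12 further pathway genes, and 633 genes higher and 357 lower. Deviations of same-numbered libraries correlated at 0.0058, 0.067 and −0.24, not all above 0.1, so same-numbered libraries were not treated as pairs; whether they share mice is not stated. With each library left out in turn, members ranged from 5 to 16, chaperones from 2 to 5, degradation genes from 0 to 1, sensors from 2 to 4, ATF4 targets from 1 to 6, further pathway genes from 11 to 32 higher and 4 to 9 lower, and all genes from 581 to 1237 higher and 350 to 857 lower. The lowest member count came without DHT replicate 3 and the highest without control replicate 3. The further lists were added to the alternatives after seeing the data. With 3 libraries a group, the uncalled ATF4 targets *Trib3*, *Ddit3*, *Sesn2* and *Ppp1r15a* had the widest intervals, up to 0.83 for *Trib3*; most other uncalled members had fold changes near 0.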
